A study of Mus musculus with 15 samples.

Results

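The immunoglobulin heavy chain (Igh) gene segments were taken as all genes of the RefSeq annotation of GRCm38 on chromosome 12, between 113 and 117 Mb, whose symbols begin with Ighv, Ighd, Ighj, Ighm, Ighg, Ighe or Igha. The rule found 215 of the 49554 genes of the annotation on chromosomes 1 to 19 and X: 8 constant (C) region genes, 4 joining (J) segments, 20 diversity (D) segments and 183 variable (V) segments. Pseudogenes made up 10 of the D segments and 63 of the V segments. Histone marks and open chromatin were mapped in untreated EL4 cells, a T lymphocyte lymphoma line from the C57BL/6N mouse strain, by ChIP-seq of H3K4me3, H3K9ac, H3K27ac, H3K36me2 and H3K27me3 and by ATAC-seq, with 2 replicate libraries each. Each of the 12 libraries was available as a list of called intervals with no read counts, so sequencing depth was unknown and a gene was either inside, partly inside or outside an interval. The study's methods describe the 2 libraries of an assay as technical replicates, so the spread between them is technical. The input DNA and RNA-seq samples of the series were not analysed here.

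An antibody heavy chain gene is assembled in developing B cells. The recombinase made of Rag1 and Rag2 first joins 1 D segment to 1 J segment, then a V segment is joined to the DJ unit, and the assembled exon is spliced to the constant gene Ighm. The intronic enhancer between the J segments and Ighm drives transcription of the unrearranged locus, a regulatory region lies beyond Igha at the other end of the constant genes, and class switching later replaces Ighm by one of the downstream constant genes. T cells assemble T cell receptor genes instead, although D to J joining and transcripts from the Igh locus are known in some T cells and T cell lines. Among the chromatin marks, H3K4me3 marks active promoters, H3K9ac and H3K27ac mark active promoters and enhancers, H3K36me2 spreads over broad regions, and H3K27me3 marks regions silenced by Polycomb proteins.

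The locus was read from the constant genes at the low coordinates to the most distant V segment at the high coordinates, the reverse of its direction of transcription. The constant part ran for 167 kb (chr12:113256204-113422730) and held, in this order, Igha, Ighe, Ighg2c, Ighg2b, Ighg1, Ighg3, Ighd and Ighm, which encode the IgA, IgE, IgG, IgD and IgM heavy chains. A stretch of 5783 bp without members (chr12:113422731-113428513), the gap from here on, separated Ighm from Ighj4 and was counted in neither part. The J segments took 1320 bp (chr12:113428514-113429833), the D segments 96.3 kb (chr12:113430528-113526809) and the V segments 2.44 Mb, from Ighv5-1 to Ighv1-86 (chr12:113572929-116009954). The variable part (J, D and V) was 2.58 Mb long.

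The labelled cell type was checked on its markers. All 8 T cell markers (Cd3e, Cd3d, Cd3g, Lck, Zap70, Cd247, Tcf7 and Bcl11b) shared at least 1 bp with an H3K4me3, an H3K9ac and an H3K27ac interval in both replicates. Of all genes of the annotation, 25.9% did so. Among B cell markers, Pax5 did so while also carrying H3K27me3 in both replicates, and Cd79a, Cd79b, Ms4a1, Ebf1, Blk and Cd22 did not. Most genes did not either, so this absence alone does not set those B cell markers apart. The lists held between 17519 (ATAC-seq replicate 1) and 46015 (H3K27me3 replicate 1) intervals.

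A single wide interval of active marks lay over the J segments. It opened inside Ighm, crossed the whole gap, took in Ighj4, Ighj3, Ighj2 and Ighj1 and closed beyond Ighd4-1, the D segment nearest to the J segments (also called DQ52). It was present in all 6 libraries of H3K4me3, H3K9ac and H3K27ac. For H3K4me3 it was 9053 bp wide in replicate 1 (chr12:113422087-113431139) and 8902 bp in replicate 2 (chr12:113422184-113431085). For H3K9ac it was 8485 bp (chr12:113422282-113430766) and 8809 bp (chr12:113422317-113431125). For H3K27ac it was 9053 bp (chr12:113422136-113431188) and 8993 bp (chr12:113422199-113431191). The 6 starts thus fell within 230 bp and the 6 ends within 425 bp of each other, and 8450 bp were common to all of them. The median interval in the same lists was between 805 and 1359 bp wide. Ordered by width, the Igh interval was number 14 of 18577 and number 13 of 18127 in the H3K4me3 replicates. In the H3K9ac replicates it was number 10 of 20512 both times, and in H3K27ac number 16 of 27710 and number 24 of 28279.

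**Figure D1:**
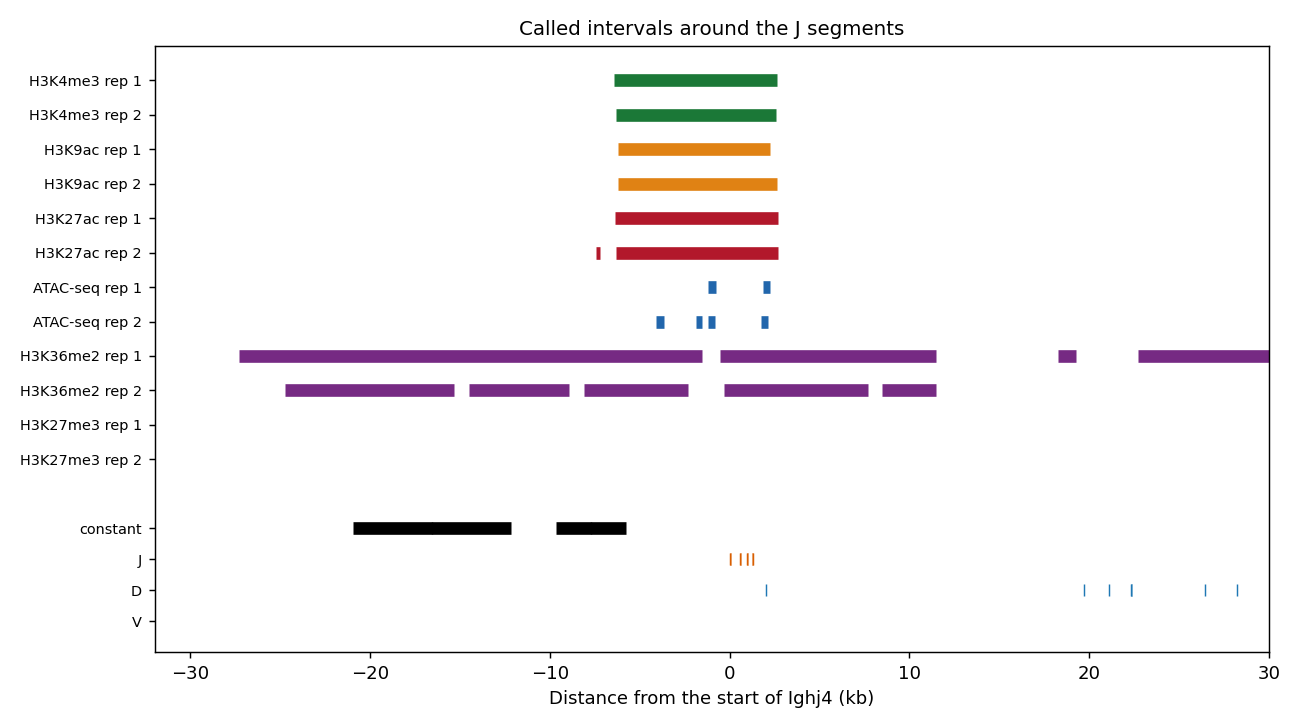
Called intervals in the 12 libraries (rows, named by assay and replicate) against the distance from the start of Ighj4 in kb, with constant genes and J and D segments drawn below to scale and short segments marked by a tick. The 6 libraries of H3K4me3, H3K9ac and H3K27ac each hold 1 bar that begins in Ighm and ends just beyond Ighd4-1, and the H3K36me2 bars are broken in both replicates at the ATAC-seq interval about 1 kb below Ighj4.

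Open chromatin inside this interval was punctate. An ATAC-seq interval in the gap, near Ighj4, was called in replicate 1 (chr12:113427298-113427765, 468 bp) and in replicate 2 (chr12:113427323-113427679, 357 bp). Another covered Ighd4-1 in replicate 1 (chr12:113430350-113430737, 388 bp) and in replicate 2 (chr12:113430271-113430650, 380 bp). Replicate 2 held a further pair in the gap that replicate 1 lacked (chr12:113424421-113424838 and chr12:113426631-113426993). None of the 4 J segments, which lie between the ATAC-seq intervals of the gap and of Ighd4-1, was inside an ATAC-seq interval in either replicate, whereas all 4 were entirely inside the intervals of the 3 active marks and of H3K36me2 in both.

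H3K36me2 flanked the accessible site near Ighj4 and was interrupted there, but not at the accessible Ighd4-1. In replicate 1 an interval of 25.8 kb over Ighd and Ighm (chr12:113401201-113426999) was followed, after 1001 bp without a call, by an interval of 12.0 kb over the J segments and Ighd4-1 (chr12:113428001-113439999). In replicate 2 the region was called in shorter pieces, and the break in the gap was 2001 bp long (chr12:113426200-113428200). The break contained the ATAC-seq interval near Ighj4 of both ATAC-seq replicates in each case. Other breaks of the region, such as chr12:113413200-113414000 in replicate 2, held no ATAC-seq interval. The broad calls stand on bins of 200 bp, so their edges are no finer than that. H3K27me3 was not called anywhere in the gap, the J segments or the D segments in either replicate.

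Constant genes were otherwise bare of active marks. Ighm was the only one of the 8 that shared a base with H3K4me3, H3K9ac or H3K27ac, through the lower end of the wide interval, which covered 16.5% and 14.01% of the gene for H3K4me3 and 11.5% and 10.6% for H3K9ac in replicates 1 and 2. For H3K27ac the covered share of Ighm was 15.2% and 19.8%, and replicate 2 had in addition an interval of 241 bp within the gene (chr12:113421069-113421309). Across all genes of the annotation, 27.7% were touched by H3K4me3, 26.5% by H3K9ac and 27.5% by H3K27ac in both replicates, and 1 of 8 constant genes is 12.5% (exact Clopper-Pearson 95% interval 0.316 to 52.7%). No constant gene was touched by ATAC-seq, against 23.7% of all genes. H3K36me2 covered 100% and 90.9% of Ighd and 100% and 79.5% of Ighm in replicates 1 and 2, and these 2 of 8 genes compare with 26.5% of all genes. The genes of the IgG, IgE and IgA classes (Ighg3, Ighg1, Ighg2b, Ighg2c, Ighe and Igha) held no H3K36me2 in either replicate. H3K27me3 touched Ighg1 by 1.48% of its length in replicate 1 alone, and 0 of 8 constant genes in both replicates, against 14% of all genes. Replicate 1 called 3 H3K27me3 intervals between Ighg2c and Ighg1 and replicate 2 a single one of 1.4 kb between Ighe and Ighg2c, and no base of the constant part was called in both.

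D segments beyond Ighd4-1 carried no active mark and no ATAC-seq interval. Ighd4-1 (chr12:113430528-113430538) was therefore 1 of 20 D segments, 5.0%, for each of H3K4me3, H3K9ac, H3K27ac and ATAC-seq. D and V segments are short, and genes of up to 1000 bp in the annotation were touched in both replicates in 5.17% of cases by H3K4me3, 4.41% by H3K9ac, 4.65% by H3K27ac and 2.64% by ATAC-seq. H3K36me2 covered 36.8% and 23.1% of the span of the D segments in the 2 replicates, above its 15.04% and 15.08% of all of chromosome 12. Ighd4-1, Ighd5-8, Ighd6-1 and Ighd1-1 lay wholly inside H3K36me2 intervals in both replicates, and 9 other D segments in a single replicate. These 4 of 20 segments are 20% (exact 95% interval 5.73 to 43.7%), beside 9.35% of genes of up to 1000 bp.

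V segments were almost empty. No V segment of 183 was touched by H3K4me3 or H3K9ac in any of the 4 libraries, which for 0 of 183 leaves an exact upper bound of 2.0%. H3K27ac touched 6 V segments in replicate 1 and 8 in replicate 2, and 6 in both, 3.28% of the 183 (exact 95% interval 1.21 to 7.0%). ATAC-seq touched 4 and 6 V segments, with 2 in both replicates, or 1.09% (0.133 to 3.89%). H3K36me2 touched 11 and 10, with 5 in both, or 2.73% (0.893 to 6.26%). H3K27me3 touched no V segment in replicate 1 and Ighv6-1 in replicate 2, where 7.62% of genes of up to 1000 bp were touched in both replicates. For all 6 assays the share of V segments touched in both replicates lay below that of short genes, a difference that was not tested. The segments share a locus and long runs of related sequence and are not replicates. The exact intervals therefore describe counting error only and cannot set V segments apart from short genes.

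**Figure D2:**
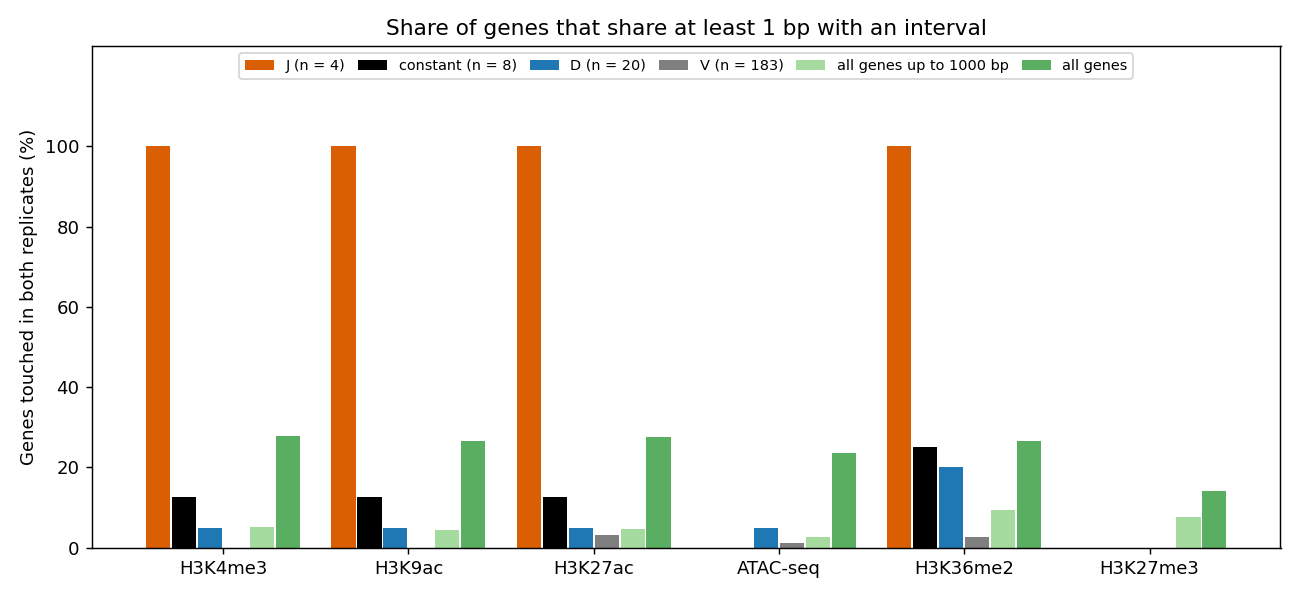
Percent of genes sharing at least 1 bp with an interval in both replicates (y axis) for each assay (x axis), by class of Igh segment and over all annotated genes and those of up to 1000 bp. The J bars reach 100% for H3K4me3, H3K9ac, H3K27ac and H3K36me2, and the V bars stay at or below 3.28%.

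The 6 V segments with H3K27ac in both replicates were Ighv14-4, Ighv1-11, Ighv8-6, Ighv1-54, Ighv1-58 and Ighv1-77, spread over 1.69 Mb. All 6 are annotated as V segments and none as a pseudogene, and 4 belong to the Ighv1 family, which makes up 92 of the 183. At Ighv14-4 (chr12:114176438-114176867) the H3K27ac interval covered 72.6% and 100% of the segment in replicates 1 and 2. At Ighv1-11 (chr12:114612244-114612536) it covered 100% and 78.8%. Ighv8-6 (chr12:115165777-115166077) was covered entirely in both replicates, by the widest of the V segment intervals, 791 and 900 bp. Ighv1-77 (chr12:115861867-115862160) was covered by 87.4% and 59.5%. Ighv1-54 and Ighv1-58 were the pair that was also accessible in both replicates. ATAC-seq covered 100% of Ighv1-54 (chr12:115193675-115193968) in both replicates and H3K27ac 37.1% and 64.6% of it. For Ighv1-58 (chr12:115312166-115312597) the ATAC-seq shares were 55.6% and 63.4% and the H3K27ac shares 86.3% and 73.1%.

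Other sites of the V part lay between segments. The V part held 19 sites, merged from overlapping intervals of H3K4me3, H3K9ac, H3K27ac and ATAC-seq, of which 9 were called in both replicates of at least 1 assay. Of these, 6 touched the V segments above, and 0 of the 6 had H3K4me3 or H3K9ac in any library. The other 3 touched no segment, and 2 of them carried all 3 active marks in both replicates. The first (chr12:114378516-114379873, 1358 bp) was called in all 8 libraries of the narrow assays and lay between Ighv12-3 and Ighv6-3, 11.7 kb from the nearest gene of the annotation. H3K4me3 was 1358 and 1209 bp wide there, H3K27ac 1086 and 1027 bp, and ATAC-seq 488 and 400 bp. The second (chr12:114602188-114603066) lay between Ighv1-10 and Ighv1-11, 4.0 kb from Ighv1-10, and was called in all 6 libraries of the active marks. An ATAC-seq interval of replicate 2 (chr12:114601932-114602178) ended just below its start, and an H3K36me2 interval of replicate 1 overlapped it. The third (chr12:114790767-114791146), 2.1 kb from Ighv1-26, was called by ATAC-seq alone, in both replicates. The remaining 10 sites of the V part were each called in 1 library.

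**Figure D3:**
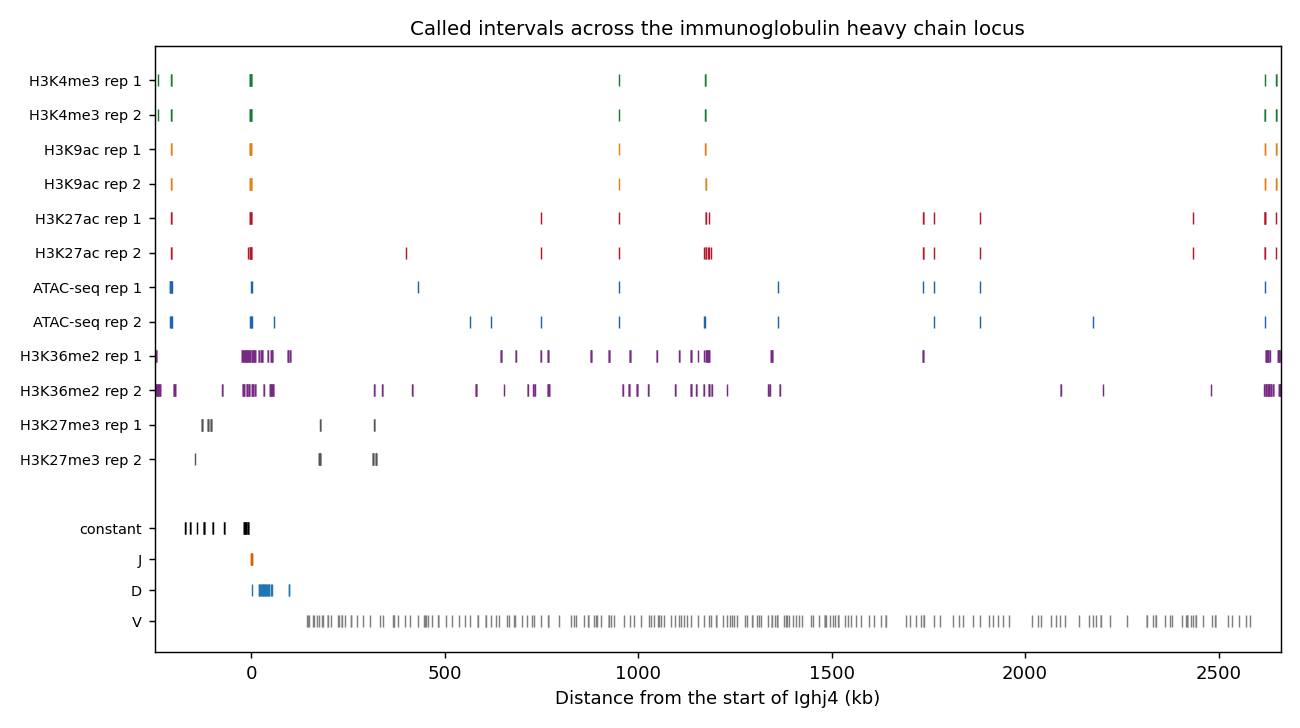
Called intervals in the 12 libraries (rows) across the whole locus against the distance from the start of Ighj4 in kb, with the segments below. Each interval and segment carries a tick of fixed width so that short ones can be seen. Within the V part, a site shared by all 8 narrow libraries stands only near 951 kb, and most H3K36me2 calls lie below the 367 kb stretch without calls.

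H3K36me2 in the V part was concentrated at one stretch. The V part was divided into 5 windows of 500 kb counted from the J side, the last one shorter. H3K36me2 covered 0.266% and 1.76% of the first window (Ighv5-1 to Ighv16-1) in replicates 1 and 2. It covered 7.97% and 7.76% of the second (Ighv6-2 to Ighv15-2) and 4.24% and 3.68% of the third (Ighv1-9 to Ighv8-5). In the fourth (Ighv1-50 to Ighv8-11) the values were 0.80% and 0.56%, and in the fifth (Ighv1-66 to Ighv1-86) 0 and 0.549%. Both replicates thus gave the second and the third windows the highest values, and every window lay under the 15.04% and 15.08% of the chromosome. The positions agreed less well than the shares, since the bases called in both replicates were 0.121 of those called in either over the V part, against 0.690 over the constant part. The V segments wholly covered in both replicates were Ighv3-3, Ighv6-4, Ighv15-2, Ighv1-10 and Ighv1-11, all in the second and the third windows. Ighv5-1, the segment nearest to the J segments, and Ighv1-86, the farthest, were in no interval of any library. H3K27ac covered most in the second to the fourth windows, from 0.231% to 0.367% of their bases, against 0 and 0.04% in the first and 0.0943% and 0.0501% in the fifth.

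**Figure D4:**
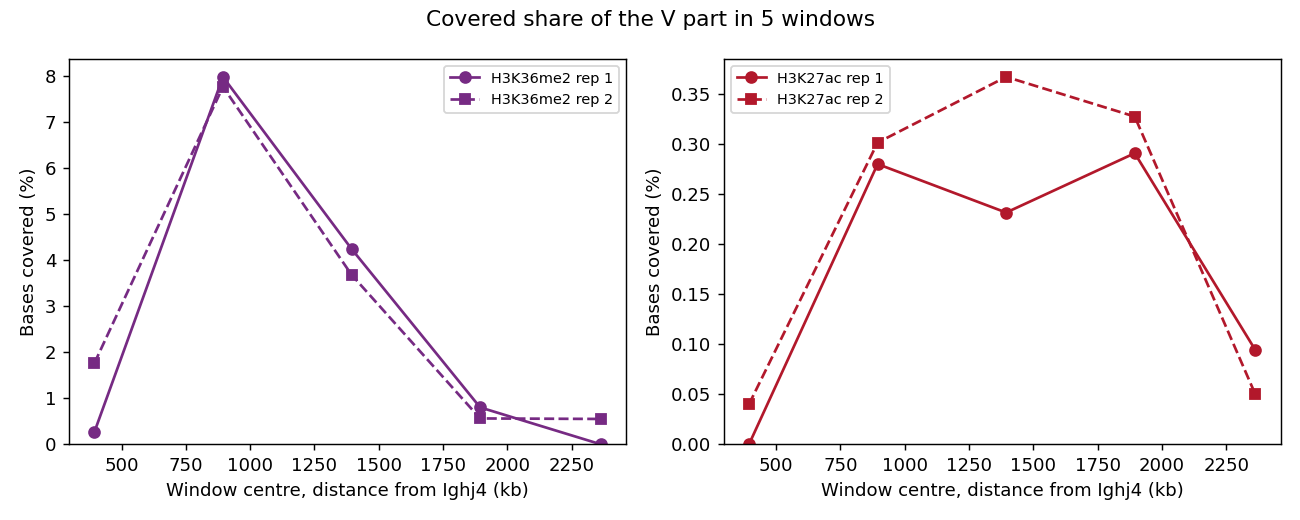
Percent of bases covered by H3K36me2 (left) and H3K27ac (right) in 5 windows of the V part, plotted at the window centre as distance from Ighj4 in kb, with a line for each replicate. H3K36me2 peaks in the second window, at 7.97% and 7.76%, and falls to 0 and 0.549% in the fifth.

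H3K27me3 was scarcer still. It covered 0.0984% of the V part in replicate 1 and 0.747% in replicate 2, where 8.58% and 10.3% of chromosome 12 was covered. All its calls in the V part lay near Ighv6-1 and Ighv5-9-1, in the first window. Only 1399 bp were called in both replicates, beyond the end of Ighv6-1.

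The constant part was then compared with the variable part by the percent of bases inside intervals. For H3K4me3, 0.387% and 0.328% of the constant part and 0.167% and 0.161% of the variable part were covered in replicates 1 and 2, a difference of 0.193 ± 0.0367 percentage points (SD, n = 2). For H3K9ac the constant part had 0.270% and 0.249% and the variable part 0.138% and 0.160%, a difference of 0.110 ± 0.0309. For H3K27ac they had 0.357% and 0.464% against 0.275% and 0.313%, a difference of 0.117 ± 0.0488. Constant values lay above variable values in both technical replicates of these marks. Counted over the bases inside member genes in place of the whole spans, the H3K27ac difference turned to -1.41. Except for the 241 bp of H3K27ac named above, however, the constant side of these differences was the lower end of 1 interval, between 414 and 644 bp of Ighm. ATAC-seq went the other way, with no base of the constant part called and 0.101% and 0.154% of the variable part, a difference of -0.127 ± 0.0374.

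H3K36me2 had the largest difference that both replicates shared. It covered 12.9% and 12.6% of the constant part and 4.10% and 3.70% of the variable part, 8.85 ± 0.0291 percentage points apart. Both parts lay below its 15.04% and 15.08% of chromosome 12. The constant value came mainly from the stretch over Ighd and Ighm, and V segments alone had 2.72% and 2.92%. For H3K27me3 the constant part had 8.29% and 0.840%, the variable part 0.0929% and 0.705%, and the difference of 4.16 ± 5.70 was smaller than its spread between replicates. With 2 libraries per assay an exact sign-flip permutation test cannot go below p = 0.5, so no test was run on any of these differences. All 3 active marks, in both parts, lay below their coverage of chromosome 12 as a whole, which was 0.886% and 0.863% for H3K4me3, 0.768% and 0.763% for H3K9ac and 1.06% and 1.08% for H3K27ac.

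The placement of the gap decided the sign for 4 of the 6 assays. The gap was covered to 100% by the 3 active marks in both replicates, to 8.09% and 19.7% by ATAC-seq and to 82.7% and 65.4% by H3K36me2. With the gap added to the variable part, the difference was -0.0297 for H3K4me3, -0.113 for H3K9ac and -0.106 for H3K27ac. With the gap added to the constant part, the ATAC-seq difference was 0.339. These placements were chosen after seeing the data.

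**Figure D5:**
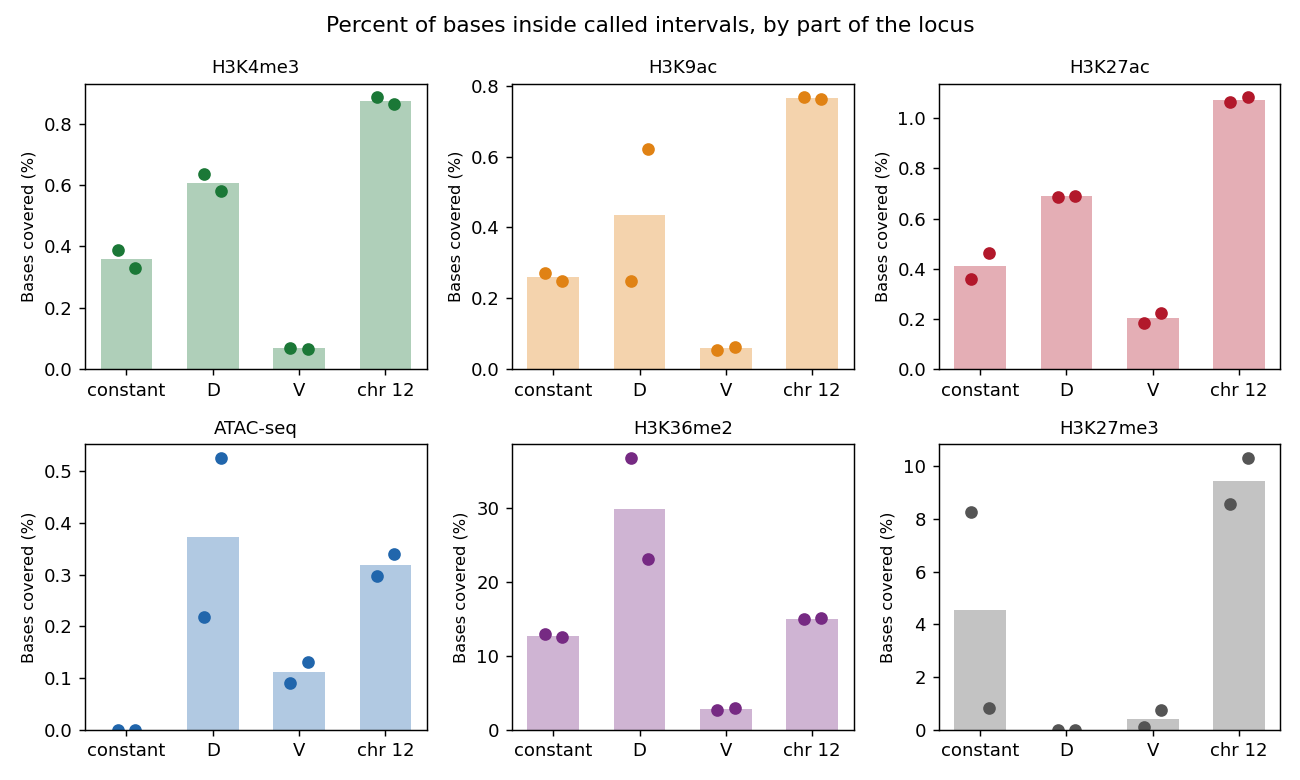
Percent of bases covered (y axis, a separate scale in each panel from 0) in the constant part, the D segments, the V segments and all of chromosome 12, for each assay. Points are the 2 replicates and bars their mean. The V segments are the lowest of the 4 for H3K4me3, H3K9ac, H3K27ac and H3K36me2, and the H3K27me3 replicates differ widely in the constant part.

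Over all 6 assays, 44 of the 215 members were touched in at least 1 library and 171 in none. The 44 were 3 constant genes, 4 J segments, 13 D segments and 24 V segments. The share of all genes touched in any library was not counted, so these numbers do not set the locus apart. Intervals of any library covered 8.69% of the locus, 24.2% of the constant part and 7.48% of the variable part. The longest stretch without an interval in any library was 367 kb (chr12:114795200-115162200) and held 30 V segments. A stretch of the reference can be without calls because it is unmarked, because reads from near-identical V segments do not align to a single place, or because the DNA between joined segments was lost from the line, and the interval lists cannot tell these apart.

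At the borders of the locus, active sites resumed on either side. Beyond Igha, on the side of the regulatory region known to lie there, a site called in all 8 narrow libraries lay 33.0 kb from Igha (chr12:113221827-113223177). ATAC-seq intervals in both replicates lay 35.4 and 38.0 kb from Igha as well, and the cluster held no member and no H3K36me2 or H3K27me3. Of the 5 nearest genes on that side (Gm25622, Tmem121, Tedc1, Crip1 and Gm30599), Crip1, which encodes a small zinc-binding LIM protein, carried all 3 active marks in both replicates, and Tmem121 H3K4me3 alone. On the other side the next site began 37.2 kb beyond Ighv1-86, at the start of the zinc finger gene Zfp386, which carried all 4 narrow assays in both replicates. Of the 4 genes after it, Vipr2, a neuropeptide receptor gene, carried all 4 too, Gm46383 the 3 active marks, and Gm20658 and Gm23732 none. Adam6b, which stands among the D segments, and Adam6a, between the D and V segments, were in no interval of any library. Among the 36 annotated genes inside the locus that are not members, only the lncRNA gene Gm40899 was touched, by H3K36me2 in both replicates.

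The promoters of the nearest gene on each side with all 3 active marks in both replicates are shown. They run from 250 bases before to 50 after a start given for each promoter in RefSeq GRCm38.p6, 5′ to 3′. For Crip1 this is the annotated gene start, and for Zfp386 it lies slightly inside the gene, annotated from chr12:116047714. Capitals mark bases inside an ATAC-seq interval, of replicate 2 alone for Crip1 (192 bases) and of both replicates for Zfp386 (all 300 bases). The Crip1 window is chr12:113151762-113152061 and the Zfp386 window chr12:116047474-116047773, both on the plus strand. None of the 215 members had an entry in the same promoter table.
Crip1: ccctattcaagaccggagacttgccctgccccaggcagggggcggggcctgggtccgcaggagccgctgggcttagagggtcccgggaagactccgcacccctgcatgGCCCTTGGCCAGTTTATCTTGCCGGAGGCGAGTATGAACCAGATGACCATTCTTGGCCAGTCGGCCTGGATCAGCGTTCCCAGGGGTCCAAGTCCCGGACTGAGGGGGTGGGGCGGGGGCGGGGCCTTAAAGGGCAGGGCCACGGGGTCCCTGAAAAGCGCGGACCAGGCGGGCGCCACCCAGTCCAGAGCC
Zfp386: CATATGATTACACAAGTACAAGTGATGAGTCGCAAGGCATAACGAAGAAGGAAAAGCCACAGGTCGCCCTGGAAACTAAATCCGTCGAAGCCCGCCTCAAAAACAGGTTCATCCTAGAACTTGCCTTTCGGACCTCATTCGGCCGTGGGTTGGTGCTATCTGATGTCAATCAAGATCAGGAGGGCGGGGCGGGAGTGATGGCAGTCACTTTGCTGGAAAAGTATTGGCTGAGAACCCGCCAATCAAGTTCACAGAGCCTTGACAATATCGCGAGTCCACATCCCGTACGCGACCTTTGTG

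Neither window, on either strand, held the octamer ATGCAAAT, a motif known from immunoglobulin promoters. The same held for the heptamer CACAGTG and the nonamer ACAAAAACC of recombination signals. Across the 32851 promoters of the table these letters occurred in 1.74%, 6.81% and 0.371%. Most promoters thus lack them, and no window of an Igh member was searched, so their absence says nothing about the segments.

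Genes that act on the locus were looked up by list. Rag1 and Rag2, the recombinase genes, were touched by H3K27me3 in both replicates and by no other assay. Dntt, which adds bases at the joints, carried H3K4me3, H3K9ac and H3K27ac in both replicates without ATAC-seq. Xrcc5, Dclre1c, Lig4, Xrcc4, Nhej1 and Ung, genes of end joining and base repair, carried the 3 active marks and ATAC-seq in both replicates. Of these, Nhej1 was also touched by H3K27me3 in both replicates. Xrcc6 carried H3K9ac and H3K27ac in both, and Prkdc H3K27ac in a single replicate. Of 14 transcription factors and architectural proteins known at the locus, 13 were touched by all 3 active marks in both replicates, as were 25.9% of all genes. They were Pax5, Tcf3, Ikzf1, Yy1, Ctcf, Rad21, Pou2f1, Pou2f2, Pou2af1, Spi1, Irf4, Ets1 and Runx1. Pax5 also carried H3K27me3 in both replicates and no ATAC-seq. Ebf1, needed for B cell commitment, was the exception, with H3K27me3 in both replicates and H3K4me3 in a single one. None of the 6 partners of the heavy chain protein (Cd79a, Cd79b, Igll1, Vpreb1, Vpreb2 and Jchain) was touched by an active mark or ATAC-seq in any library. Most genes are not touched either. In both replicates, H3K4me3 touched 27.7% of all genes, H3K9ac 26.5%, H3K27ac 27.5% and ATAC-seq 23.7%, so 0 of 6 does not set these genes apart.

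Other antigen receptor loci gave a scale for these values. V segments of the immunoglobulin kappa light chain locus (Igk, 162 segments) were touched in both replicates by H3K27ac in 4 cases and by H3K4me3 in 1. For the T cell receptor loci, which this lineage does rearrange, H3K4me3 touched 11 of 130 V segments at the alpha locus (Tra) and 1 of 35 at the beta locus (Trb), and H3K27ac 10 and 3. As shares, H3K4me3 touched 0.617% of Igk, 8.46% of Tra and 2.86% of Trb V segments, beside 5.17% of genes of up to 1000 bp. The H3K27ac shares were 2.47%, 7.69% and 8.57%, beside 4.65%. H3K4me3 covered 0.924% and 0.904% of the Tra V span and 0.933% and 0.823% of the Trb V span, against 0.0695% and 0.0650% of the Igh and 0.0503% and 0.0574% of the Igk V span. The Trb V span includes the D, J and C segments, since a V segment lies beyond them, and without that stretch H3K4me3 covered 0.435% and 0.328% of it. For H3K4me3 the 2 immunoglobulin V spans lay below the 2 T cell receptor V spans in both replicates. H3K27me3 split the loci the same way, at 5.27% and 5.27% for Tra and 9.50% and 9.38% for Trb. The Igk value was 0.756% and 1.07%, and those of Igh are given above. H3K36me2 ordered them otherwise, with 3.92% and 3.32% for Igk, 2.72% and 2.92% for Igh, 0.959% and 1.38% for Trb (0.524% and 0.984% without its D, J and C stretch) and 0 and 0.0774% for Tra. ATAC-seq also did not follow the split, with 0.0908% and 0.131% for Igh, 0.0651% and 0.0957% for Igk, 0.177% and 0.175% for Trb and 0.0170% and 0.0320% for Tra. Igh and Igk differed at the J segments. The 6 J and C members of Igk lay in no interval of an active mark, of ATAC-seq or of H3K36me2, and were covered to 100% by H3K27me3 in both replicates, whereas the 4 Igh J segments were covered to 100% by the active marks and to 0 by H3K27me3. At Trb, 7 of 18 D, J and C members (38.9%) were touched by each active mark in both replicates, and at Tra between 6 and 10 of 61 J and C members (9.84% to 16.4%). Counted in the same way, Igh had 6 of its 32 D, J and C members (18.75%) touched by each active mark in both replicates. Beside these, H3K4me3, H3K9ac and H3K27ac touched 5.17%, 4.41% and 4.65% of genes of up to 1000 bp. Over all genes the shares were 27.7%, 26.5% and 27.5%.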

How the data were processed

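EL4 cells were profiled by ChIP-seq for 5 histone marks and by ATAC-seq. By the study's methods, the authors aligned reads with STAR 2.5, kept uniquely aligned reads and treated PCR duplicates with Picard. They state that reads on chromosomes X and Y and the mitochondrial genome were discarded, while the gene background here includes X. The build is recorded as GRCm38 and is not named in the paper's methods. Narrow marks were called with MACS2 and broad marks (H3K36me2, H3K27me3) with Epic 0.2.9, both against input. ATAC-seq intervals were called with MACS2, with no input named. The deposited lists hold 3 columns (chromosome, start, end) without heights or p-values. Starts were read as 0-based and are given 1-based. Overlaps of at least 1 bp with the RefSeq genes (GRCm38.p6) were counted with Python 3.11.15 per library, and calls for 49554 genes in 12 libraries differed from bedtools 2.31.1 in 0 cases. Shares carry exact Clopper-Pearson 95% intervals, which cover counting error only. Coverage is the percent of bases of a span inside intervals. The members, gene lists and comparisons were chosen with earlier results of these data known. Named genes were all constant genes and J segments, D and V segments touched by a narrow assay in both replicates, the V segments nearest and farthest from J, those most covered by H3K36me2, and the lists given in the text; every narrow interval between Tmem121 and Zfp386 was considered. The replicate lists shared between 3 and 347 identical intervals and were kept as separate libraries. Alternatives tried were other overlap minimums, extended genes, wider intervals, leaving out a replicate and other outlines of the parts. No test was run. Some listed genes are not reported here.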

Additional observations from a re-analysis of the deposited data

Results flagged for a closer look

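ATAC-seq was the only one of the 6 assays whose coverage was lower in the constant than in the variable part in both replicates. Its difference was -0.127 percentage points on average, -0.101 in replicate 1 and -0.154 in replicate 2. The other 5 assays had a positive difference in both replicates, from 0.0883 (H3K9ac replicate 2) to 8.87 (H3K36me2 replicate 2). The difference between assays was not tested. With the gap between Ighm and Ighj4 counted in the constant part, the ATAC-seq difference was 0.339.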

How the results depend on the processing

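No paired analysis was possible because no result comes from a test. The difference between the parts is given within each library. Of 114 alternative values, 67 kept the direction and moved by no more than the SD of the replicates (for counts, stayed within 1.5 times). A further 35 moved by more and 12 reversed direction. For the differences between parts, leaving out a replicate can never move the mean by more than that SD. Those alternatives could only keep or reverse the direction, so their agreement carries no weight. Counts of members touched in both replicates for H3K4me3 and H3K9ac stayed at 5 or 6 of 215 under every alternative tried. All of these members are touched by the same wide interval over the J segments. The stable count thus describes that interval and not separate members. Touched in either replicate, the counts were 9 for ATAC-seq, 35 for H3K36me2 and 2 for H3K27me3. Single replicates gave 5 to 7 for ATAC-seq, 24 to 26 for H3K36me2 and 1 to 1 for H3K27me3. Genes extended by 1000 bp gave 6 for ATAC-seq. Intervals of at least 500 bp gave 7 for H3K27ac and 0 for ATAC-seq. No share over all genes was counted under these alternatives.

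The coverage of the constant minus the variable part, in percentage points, moved as follows. Bases inside member genes gave 1.41 for H3K4me3, 0.924 for H3K9ac, -1.41 for H3K27ac, -1.39 for ATAC-seq, 29.3 for H3K36me2 and -0.305 for H3K27me3. Leaving out D and J segments gave 0.290, 0.201 and 0.209 for H3K4me3, H3K9ac and H3K27ac and 9.93 for H3K36me2. The union of replicates gave 0.168 for H3K27ac, -0.187 for ATAC-seq and 8.55 for H3K36me2, and bases in both replicates gave 0.0665, -0.0676 and 9.15, and -0.0542 for H3K27me3. Intervals of at least 500 bp gave -0.0108 for ATAC-seq. The gap, added to the constant part after seeing the data, gave 3.54, 3.46 and 3.46 for H3K4me3, H3K9ac and H3K27ac, 0.339 for ATAC-seq and 10.9 for H3K36me2. Added to the variable part, it gave -0.0297, -0.113, -0.106 and, for H3K36me2, 8.69. Single replicates gave 0.135 to 8.19 for H3K27me3.

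The percent of constant minus variable members touched, 10.1, 10.1 and 6.70 for H3K4me3, H3K9ac and H3K27ac, became -2.42, -2.42 and -5.56 when at least 50% of a gene had to be covered, since Ighm is then lost. That setting gave -1.45 for ATAC-seq and -0.242 for H3K27me3. Extended genes gave -4.59 for ATAC-seq and 12.4 for H3K36me2. For H3K27me3 single replicates ranged from -0.483 to 12.5. The depth of the libraries is unknown, so weakly marked segments may lie below the calling threshold.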
